A study of Mus musculus with 4 samples.

Results

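The 10 genes described here encode carriers that move glutamate and other amino acids across the cell membrane, or, for Slc3a2, a partner of carriers. They were taken by symbol from the 35976 gene rows of the count table, and all 10 had a row: Slc1a1, Slc1a3, Slc1a4, Slc1a5, Slc3a2, Slc7a3, Slc7a5, Slc7a11, Slc38a1 and Slc38a2. The choice drew on family membership and on the level of each gene in every library, knockdown against control, so differences between the groups in these genes are given as a description, and no test of them is used as support. The glutamate carrier gene Slc1a3 was 6.18-fold lower in the knockdown libraries, the largest difference among the 10. The most abundant of the 10, Slc3a2, Slc7a5 and Slc38a2, differed by at most 1.31-fold. Slc1a1 varied more between libraries of a group than nearly all genes of at least 5 CPM. The series measured mRNA in mouse E14 embryonic stem cells, strain label 12910la, in 4 libraries. The 2 control libraries carry the genotype label wild type. The 2 knockdown libraries carry the label knocked down and come from cells in which a short hairpin RNA was directed against Lx8-SINE B2. All libraries share 1 description of the cultures. Cells grew on gelatin in 15% serum with 10 ng/ml LIF, 1% nonessential amino acids, 1% GlutaMAX, a dipeptide source of glutamine, and 0.1 mM β-mercaptoethanol. They were transfected with 1000 ng of the pSuper puro vector and, after 24 h, selected with 1 µg/ml puromycin for 3 days. What vector the control cells received is not stated, and only the knockdown titles carry the word batch, so the knockdown and any batch effect cannot be told apart. The labels do not say that replicate libraries are from different cultures, so the spread between them may be technical.

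Amino acid carriers of the SLC1 family use the sodium gradient. Some members take up glutamate and aspartate, and others exchange alanine, serine, cysteine or glutamine. Several light chains of the SLC7 family exchange amino acids once they are joined to the heavy chain that Slc3a2 encodes. The cationic carriers of the same family work without it. SLC38 carriers bring in glutamine and other small neutral amino acids with sodium. When amino acids are scarce, the transcription factor ATF4 is known to induce several of these genes through a composite element called CARE, and the oxidative stress factor NRF2 is known to induce Slc7a11.

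RefSeq promoter sequences (build GRCm38.p6, 250 bases before to 50 bases after the gene start) were at hand for 6 of the 10 genes, Slc1a1, Slc1a3, Slc1a4, Slc3a2, Slc7a11 and Slc38a2. Each was searched on both strands for the CARE core TGATGNAA, the NRF2 element core TGACNNNGC and the E-box CACGTG. The windows below are those with a match, because they show how the promoters of these carriers differ, and that of Slc1a3, the member with the largest difference between groups. All 4 genes lie on the minus strand, the sequences read 5′ to 3′ in the direction of transcription, and capitals mark the matches.
Slc7a11 chr3:50443614-50443713, minus strand: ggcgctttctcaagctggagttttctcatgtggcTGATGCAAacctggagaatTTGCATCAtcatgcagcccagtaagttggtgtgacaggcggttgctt
Slc1a4 chr11:20332710-20332738, minus strand: gcctccagcgtgcctcctgcgTTGCATCA
Slc38a2 chr15:96699729-96699788, minus strand: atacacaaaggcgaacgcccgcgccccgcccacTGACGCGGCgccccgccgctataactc
Slc1a3 chr15:8710808-8710907, minus strand: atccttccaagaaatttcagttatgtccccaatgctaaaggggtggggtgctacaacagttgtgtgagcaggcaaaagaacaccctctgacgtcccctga

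The Slc7a11 promoter held the CARE core on both strands, with the first base of the forward match 66 bases before the gene start and the leftmost base of the reverse match 47 bases before it. In Slc1a4 the core lay on the reverse strand and spanned the start. The Slc38a2 promoter held 1 NRF2 core, 27 bases before the start. No match overlapped another motif. The CARE core was present in 3.97% of the 32851 promoters in the table, the NRF2 core in 12.4% and the E-box in 7.15%. The E-box letters were in 0 of the 6 promoters, and none of the 3 motifs was in that of Slc1a3. A match is a description of the letters and not evidence of a bound site. A missing match covers only the searched bases, so elements elsewhere in a gene would not be seen.

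Counts were expressed as CPM, reads relative to library size, with TMM, a scaling that uses the bulk of genes as reference. Differences between groups are log2 of knockdown over control, with the standard error (SE) of the fit. Library totals ran from 16383323 to 19867689 counts, so counting error limits only the weakest genes. Across 16209 tested genes, Pearson's r of log2 CPM was 0.968 and 0.979 within groups and 0.944 to 0.959 across groups. The stem cell markers Pou5f1, Sox2, Nanog, Klf4, Esrrb and Zfp42 summed to between 3970 and 4610 CPM in every library. Of 8 fibroblast markers, 3 (Postn, Lum and Fap) were at 0 in all libraries, and the sum of the list was 15.5 and 16.6 CPM in the controls, against 5.75 and 8.14 CPM in the knockdown libraries, of which Thy1 gave 13.2 and 12.9 CPM and 2.87 and 5.53 CPM. Of 6 neural markers 0 were at 0 throughout, though Dcx had 3 reads in knockdown replicate 1 and 0 elsewhere. Their sum ran from 89.9 to 125 CPM, of which Tubb3 alone gave 67.9 to 79.6 CPM. The sum of 6 endoderm markers was 8.71 and 9.48 CPM in the controls, against 27.5 and 19.0 CPM in the knockdown libraries, with all 4 tested members higher in both knockdown libraries, as were 27.3% of all tested genes. At an adjusted p below 0.05, 0 of these 4 were higher by edgeR, beside 0.876% of all tested genes, and 1 by DESeq2, beside 4.22%. An unadjusted edgeR p below 0.05 was reached by 3 of them, beside 11% of tested genes. Of the 3 fibroblast markers tested, 0 were lower by edgeR (0.555% of all tested genes) and 1, Thy1, by DESeq2 (3.35%), and Thy1 alone was lower at an unadjusted p below 0.05 (8.58%). Whether these other cell types take part in the differences below was not tested. In bulk RNA, fewer cells of a type and less RNA per cell cannot be told apart.

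Between genes, levels can be compared only per length, here as CPM per kilobase of GENCODE M21 exon, taken over all annotated transcripts. On this scale the heavy chain gene Slc3a2 stood first in the controls at 68.6 ± 13.8 (SD, n = 2), followed by the light chain gene Slc7a5 at 62.7 ± 13.8, Slc38a2 at 51.6 ± 7.74 and Slc7a3 at 45.5 ± 10.4. In this order each of these 4 genes overlapped the next. Slc1a5 came next at 22.0 ± 0.142 CPM per kb, then Slc1a4 at 10.2 ± 0.0505 and Slc38a1 at 8.40 ± 0.995. The glutamate carriers were weak, with Slc1a3 at 1.64 ± 0.151 and Slc1a1 at 1.52 ± 1.17 CPM per kb, a pair that overlapped. Slc7a11 was the lowest at 0.116 ± 0.0144 CPM per kb. In the knockdown libraries the first 3 genes were the same, at 77.3 ± 1.57 for Slc3a2, 67.4 ± 5.56 for Slc38a2 and 64.4 ± 5.27 for Slc7a5, and Slc1a3 stood near Slc7a11 at 0.263 ± 0.121 against 0.232 ± 0.0439. The annotated exons of Slc38a1 and Slc7a11 add up to 17.2 and 13.9 kb over all transcripts, and so long a length lowers this measure.

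**Figure D1:**
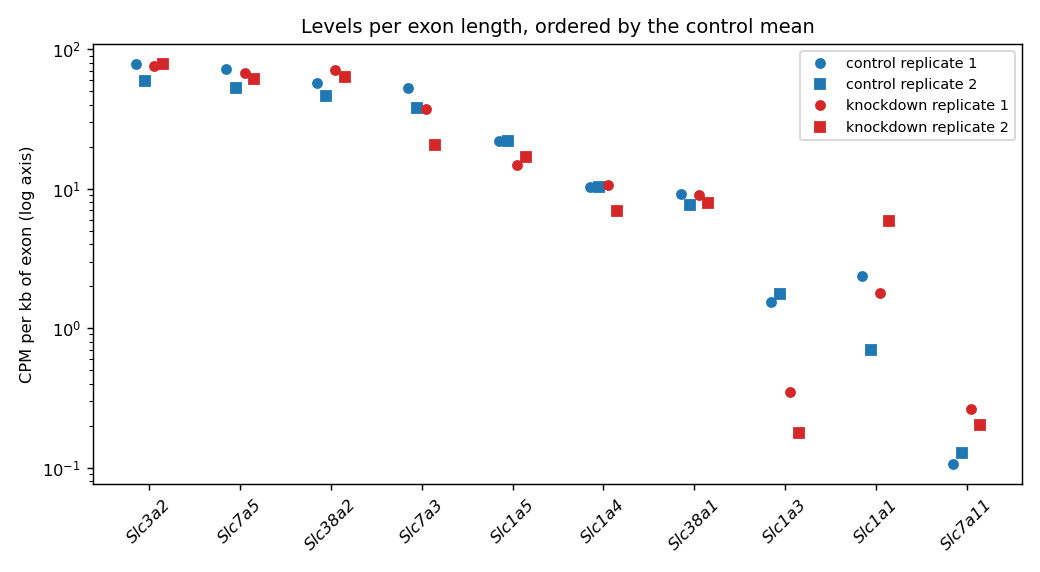
Level of each transporter gene in CPM per kilobase of exon (log axis) in the 4 libraries, ordered by the control mean. Points are single libraries, blue for control and red for knockdown. Slc3a2, Slc7a5 and Slc38a2 lead in both groups, and Slc1a3 lies between 1.53 and 1.75 in the control libraries and between 0.178 and 0.349 in the knockdown libraries.

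Slc1a3 encodes EAAT1, also called GLAST, the glutamate carrier best known from glia. It lies on chromosome 15 from 8634124 to 8710807 (GRCm38, the same assembly as mm10). It stood at 13.1 and 14.9 CPM in the control libraries, against 2.98 and 1.52 CPM in the knockdown libraries, from 248, 288, 57 and 25 reads. Both knockdown libraries were below both controls by a wide margin. The knockdown libraries differed 1.96-fold, and 3.41% of tested genes that averaged 5 CPM or more over both groups had a wider ratio between them. Slc1a3 itself was below 5 CPM in both knockdown libraries, so counting error adds to its ratio. The fitted level was 6.18-fold lower in the knockdown libraries, a log2 difference of -2.63 ± 0.41 (SE). The log2 fold change ran from -3.20 to -2.23 when each library was left out in turn.

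Slc1a1 encodes EAAT3, the neuronal and epithelial glutamate carrier that also takes up cysteine, on chromosome 19 from 28835135 to 28913960. It was at 19.4 and 5.75 CPM in the control libraries, against 14.8 and 48.8 CPM in the knockdown libraries. Knockdown replicate 1 lay between the controls, so the groups overlapped. The control libraries differed 3.38-fold and the knockdown libraries 3.29-fold. Of the 11049 tested genes that averaged 5 CPM or more, 1.26% had a wider ratio between the controls and 0.588% a wider ratio between the knockdown libraries. The log2 difference was 1.34 ± 0.65 (SE). It was 1.95 without knockdown replicate 1, 0.24 without knockdown replicate 2, 0.66 without control replicate 2 and 2.46 without control replicate 1. The exons of Slc1a1 share 2631 bases with 4430402I18Rik on the other strand, a row with 5 to 10 reads per library, and without strand the reads of such genes cannot be told apart.

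The neutral exchangers of the same family had smaller log2 differences. Slc1a4, which encodes ASCT1, a carrier of alanine, serine and cysteine, and which lies on chromosome 11 from 20302180 to 20332713, was at 40.2 and 39.9 CPM in the control libraries, against 41.5 and 27.2 CPM in the knockdown libraries. Its groups overlapped and its log2 difference was -0.22 ± 0.25 (SE). Slc1a5 encodes ASCT2, a glutamine exchanger, on chromosome 7 from 16781334 to 16798274, and was at 91.5 and 92.3 CPM in the controls against 62.1 and 70.5 CPM in the knockdown libraries. Both knockdown libraries were lower, with a log2 difference of -0.47 ± 0.18 (SE). The controls of Slc1a4 and Slc1a5 were nearly equal, a closeness exceeded by few genes, since 98.0% and 97.4% of the 11049 genes had a wider ratio between the controls.

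**Figure D2:**
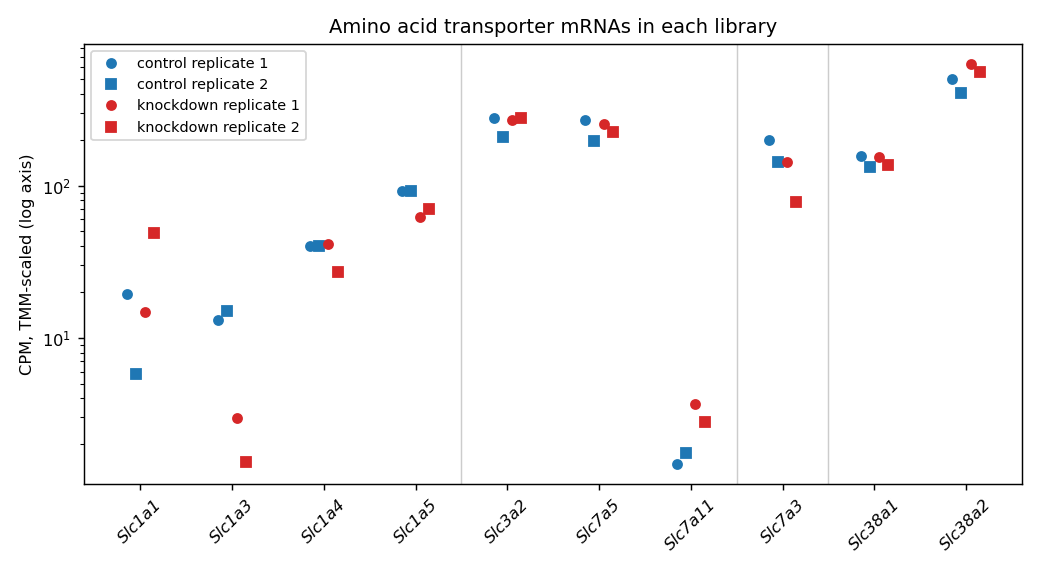
CPM of the 10 genes in each library (log axis), grouped from left to right into SLC1 carriers, the Slc3a2 heavy chain with its light chains, the cationic carrier Slc7a3 and the SLC38 carriers. Blue points are controls and red points knockdown libraries, with circles for replicate 1 and squares for replicate 2. The groups are far apart for Slc1a3, while Slc1a1 spreads from 5.75 to 48.8 CPM with overlapping groups.

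Slc3a2 encodes the CD98 heavy chain, the partner that carries several light chains to the cell surface, and lies on chromosome 19 from 8706882 to 8723369. It was at 277 and 208 CPM in the control libraries, against 269 and 277 CPM in the knockdown libraries. The groups overlapped, and the log2 difference was 0.17 ± 0.19 (SE). Slc7a5, the gene of the leucine exchanger LAT1 on chromosome 8 from 121881146 to 121907686, was at 269 and 196 CPM in the control libraries, against 252.7 and 225.0 CPM in the knockdown libraries. Both knockdown values lay between the controls, with a log2 difference of 0.04 ± 0.20 (SE).

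Slc7a11 encodes xCT, the light chain that imports cystine in exchange for glutamate. The annotated gene spans chromosome 3 from 50364936 to 50499087, and so reaches past the start whose promoter is shown above. It was at 1.48 and 1.76 CPM in the control libraries, against 3.66 and 2.79 CPM in the knockdown libraries, from 28, 34, 70 and 46 reads. Both knockdown libraries were above both controls, 1.99-fold on average, with a log2 difference of 0.99 ± 0.45 (SE). Of the light chains known to pair with Slc3a2 (Slc7a5, Slc7a6, Slc7a7, Slc7a8, Slc7a10 and Slc7a11), Slc7a5 made up 55.9% and 52.4% of the summed CPM per kb in the control libraries and 55.0% and 51.7% in the knockdown libraries. Slc7a11 made up 0.0819% and 0.125% of that sum in the control libraries and 0.212% and 0.171% in the knockdown libraries. The sum of light chains over the heavy chain, on the same per-length scale, was 1.65 and 1.72 in the controls, against 1.63 and 1.5 in the knockdown libraries.

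Slc7a3 encodes CAT3, a carrier of arginine and lysine that needs no heavy chain, on chromosome X from 101079146 to 101090452. It was at 200.1 and 144.3 CPM in the control libraries, against 142.0 and 78.3 CPM in the knockdown libraries. Control replicate 2 and knockdown replicate 1 nearly met, and knockdown replicate 2 was lowest. The knockdown libraries differed 1.81-fold, and 4.32% of tested genes that averaged 5 CPM or more had a wider ratio between them. The log2 difference was -0.64 ± 0.29 (SE), and it was -0.28 without knockdown replicate 2 and -1.14 without knockdown replicate 1.

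Slc38a2 encodes SNAT2, a glutamine and alanine importer whose production is known to rise when amino acids run short, on chromosome 15 from 96687392 to 96699728. It was at 504 and 408 CPM in the control libraries, against 630 and 561 CPM in the knockdown libraries. Both knockdown libraries were higher, with a log2 difference of 0.39 ± 0.19 (SE). Slc38a1, which encodes the related glutamine importer SNAT1 and lies on the same chromosome from 96571418 to 96643438, was at 157 and 133 CPM in the control libraries, against 154 and 136 CPM in the knockdown libraries. Its groups overlapped, with a log2 difference of 0.01 ± 0.18 (SE), whose sign turned with the other scalings.

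**Figure D3:**
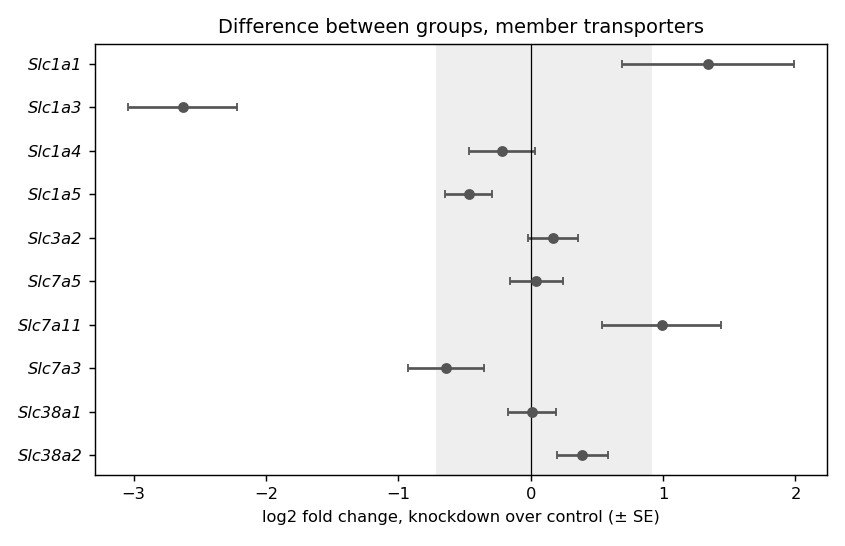
Log2 fold change of each of the 10 genes, knockdown over control, with bars of 1 standard error from the edgeR fit. The grey band spans the 10th to 90th percentile of all tested genes, -0.71 to 0.91. Slc1a3 lies far below the band, and Slc1a1 and Slc7a11 lie above it with wide bars.

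All 10 genes passed the filter on low counts. In edgeR's quasi-likelihood fit over all genes, an adjusted p below 0.05, here termed called, was reached by 1 of them (Slc1a3, lower), beside 1.43% of all tested genes, 0.876% higher and 0.555% lower. Because this contrast helped to choose the 10 genes, nothing is read from that count. The knockdown and control libraries did not overlap in 5 of them, higher in 2 (Slc7a11 and Slc38a2) and lower in 3 (Slc1a3, Slc1a5 and Slc7a3), where 51.9% of all tested genes did not overlap, 27.3% higher and 24.6% lower. Their median log2 fold change was 0.02, beside 0.01 over all tested genes, and it fell just below 0 with the other scalings. Summed over the 10 genes, the level was 1570 and 1240 CPM in the controls, against 1570 and 1430 CPM in the knockdown libraries, so the groups overlapped. The genes with a CARE core had log2 fold changes of 0.99 for Slc7a11 and -0.22 for Slc1a4, and Slc38a2, with an NRF2 core, one of 0.39. Those searched without a match had 1.34 for Slc1a1, 0.17 for Slc3a2 and -2.63 for Slc1a3. Whether motifs and differences are related was not tested.

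The genes whose pattern over the 4 libraries was most like that of Slc1a3, by the root mean square difference of centred log2 CPM, were Fgf15 at 0.162, Egln3 at 0.28 and Gm21451 at 0.286. Fgf15, a secreted growth factor gene, was at 11.4 and 11.8 CPM in the control libraries, against 2.56 and 1.64 CPM in the knockdown libraries. Egln3, a prolyl hydroxylase gene that hypoxia induces, was at 27.7 and 24.7 CPM against 6.17 and 4.49 CPM. The nearest to Slc1a1 were Cbr3, a carbonyl reductase gene, at 0.101, Tnfrsf8 at 0.219 and 1190028D05Rik at 0.238. Cbr3 shared the low control replicate 2 and the high knockdown replicate 2 of Slc1a1, at 11.5 and 4.04 CPM in the control libraries, against 9.09 and 29.5 CPM in the knockdown libraries. With 4 libraries such likeness is a description of these samples.

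Among other amino acid carriers, 44 genes of the SLC1, SLC3, SLC6, SLC7, SLC16, SLC36, SLC38 and SLC43 families were listed and 26 passed the filter. Of these 1 rose, 0 fell and 25 were not called in edgeR's fit, beside 0.876% and 0.555% of all tested genes, and the median log2 fold change was -0.26. At an unadjusted p below 0.05, 4 were higher and 4 lower, beside 11% and 8.58% of all tested genes. DESeq2 called 2 higher (Slc43a2 and Slc38a7) and 2 lower (Slc38a3 and Slc6a7), beside 4.22% and 3.35% of the 14637 genes to which it gave an adjusted p. Slc38a7, Slc38a3 and Slc6a7 are named after their values were seen. The gene that rose was Slc43a2, which encodes LAT4, a carrier of branched-chain amino acids and phenylalanine, on chromosome 11 from 75529915 to 75577575. It was at 37.1 and 25.3 CPM in the control libraries, against 79.8 and 73.8 CPM in the knockdown libraries, both higher. The rise was 2.46-fold, with a log2 difference of 1.30 ± 0.23 (SE; edgeR adjusted p = 0.0438). Slc43a2 was not called without control replicate 2 (1.00), knockdown replicate 1 (1.24) or knockdown replicate 2 (1.35), nor with other scalings (1.28 and 1.27).

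The most abundant other carriers were not called by edgeR. Slc38a4, which encodes the neutral carrier SNAT4, was at 315 and 309 CPM in the control libraries, against 212 and 214 CPM in the knockdown libraries, a log2 difference of -0.55 ± 0.16 (SE, edgeR adjusted p = 0.123). Slc6a6, the taurine carrier gene, was at 375 and 263 CPM against 221 and 181 CPM, a log2 difference of -0.67 (edgeR adjusted p = 0.153), and was called without control replicate 2, at -0.95. The cationic carrier gene Slc7a1 had a log2 difference of -0.02 ± 0.21 (SE). Slc7a7, a light chain gene for export of cationic amino acids, had one of 0.35 ± 0.24 (SE), and Slc38a10 one of -0.25 ± 0.20 (SE).

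In the SLC1 family, Slc1a6, the only other gene tested, was at 2.38 and 1.86 CPM in the control libraries, against 1.25 and 0.304 CPM in the knockdown libraries, with a log2 difference of -1.42 ± 0.67 (SE). It was not called. The glutamine carrier gene Slc38a3 was at 12.6 and 11.9 CPM in the control libraries, against 4.65 and 3.40 CPM in the knockdown libraries, a log2 fold change of -1.60. It was not called by edgeR (adjusted p = 0.0612) and was called lower by DESeq2 (adjusted p = 0.00147). The other 18 listed carriers did not pass the filter. Of these Slc7a12, Slc7a13 and Slc6a18 had 0 reads in every library, which allows up to 0.181 CPM in the shallowest library at a limit of 3 counts.

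**Figure D4:**
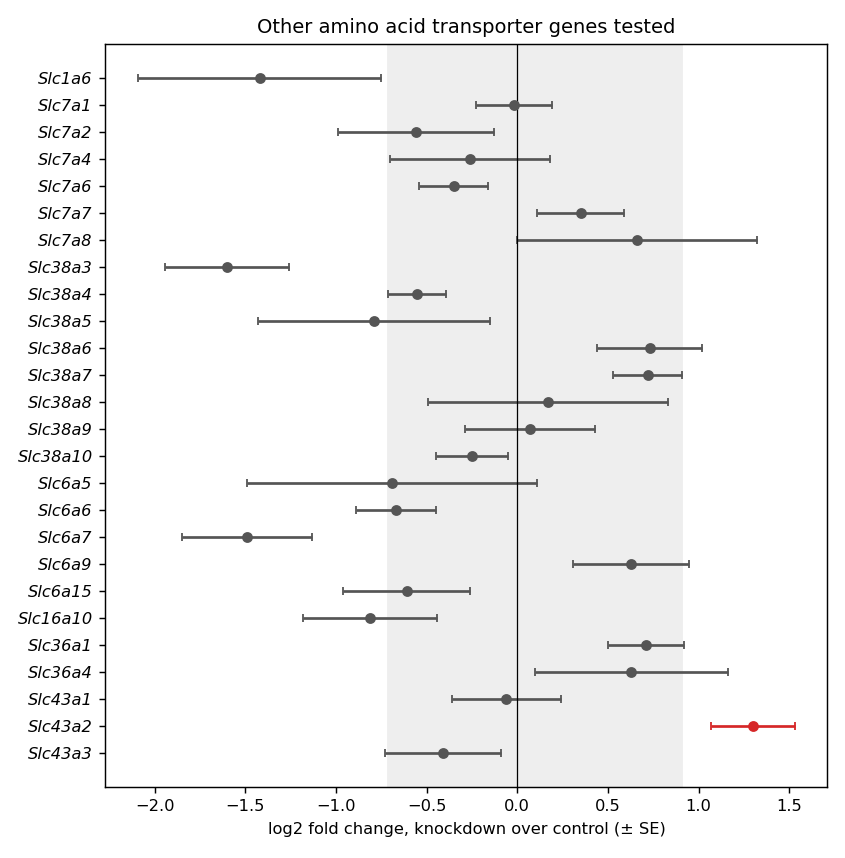
Log2 fold change, knockdown over control, of the 26 tested amino acid carrier genes outside the 10, with bars of 1 standard error and the grey band of -0.71 to 0.91 for the middle of all tested genes. Red marks Slc43a2, the only gene called, at 1.30.

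Enzymes that make or use glutamate were listed with those of glutathione, the tripeptide built from glutamate, cysteine and glycine. All 18 were tested, of which 1 fell, 0 rose and 17 were not called by edgeR, beside 0.555% lower and 0.876% higher of all tested genes, with a median log2 fold change of -0.12. At an unadjusted p below 0.05, 2 were higher and 3 lower, beside 11% and 8.58% of all tested genes. DESeq2 called 0 higher and 2 lower (Ggt1 and Gls2), beside 4.22% and 3.35%. Gls2, a glutaminase gene, is named after its values were seen. It was at 56.2 and 44.3 CPM in the controls, against 26.8 and 25.3 CPM in the knockdown libraries. Its log2 fold change was -0.95 (edgeR adjusted p = 0.0698, DESeq2 adjusted p = 0.00594). Ggt1, the surface enzyme that splits glutathione and releases its glutamyl group, fell 4.45-fold. It went from 9.29 and 11.8 CPM in the controls to 1.88 and 2.85 CPM in the knockdown libraries, with a log2 difference of -2.15 ± 0.39 (SE; edgeR adjusted p = 0.0456). The call was lost without control replicate 2 (-2.02), without knockdown replicate 1 (-1.88) and with upper quartile scaling (-2.19). The abundant Glud1, glutamate dehydrogenase, and Gpx4, a glutathione peroxidase, stood at log2 differences of 0.32 and -0.19, neither called. Of 9 listed carriers of glutamate, aspartate or cystine in inner membranes and vesicles, 7 were tested and 0 were called by edgeR or DESeq2, with a median log2 fold change of -0.09. At an unadjusted edgeR p below 0.05, 1 was higher and 1 lower, beside 11% and 8.58% of all tested genes. Ctns, the lysosomal cystine exporter gene, was at 32.4 and 30.3 CPM in the control libraries, against 55.0 and 45.7 CPM in the knockdown libraries (log2 fold change 0.68, not called). The mitochondrial carrier gene Slc25a13 had a log2 difference of -0.12 ± 0.32 (SE).

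ATF4 and 21 of its known targets had 11 positive and 11 negative log2 fold changes, with a median of -0.01. In edgeR's fit 2 rose and 1 fell, beside 0.876% and 0.555% of all tested genes. At an unadjusted p below 0.05, 8 were higher and 3 lower, beside 11% and 8.58%. DESeq2 called 6 higher (Atf3, Atf4, Atf5, Ddit3, Ddit4 and Sesn2) and 2 lower (Phgdh and Psph), beside 4.22% and 3.35%. Ddit3, Ddit4, Sesn2 and Psph are named after their values were seen and were not called by edgeR. Atf4 itself, named after its values were seen, was at 200.5 and 179.9 CPM in the control libraries, against 348 and 324 CPM in the knockdown libraries. Its log2 difference of 0.82 ± 0.17 (SE) was not called by edgeR (adjusted p = 0.0589) and was called by DESeq2 (adjusted p = 0.00363). Atf5, a transcription factor gene, rose 5.64-fold, from 15.5 and 24.0 CPM to 124 and 98.7 CPM (edgeR adjusted p = 0.0101). Atf3, a stress-induced factor, rose from 1.53 and 2.07 CPM to 6.95 and 17.4 CPM (edgeR adjusted p = 0.0493). The call was lost without control replicate 1 (2.54), control replicate 2 (2.93) or knockdown replicate 2 (1.95), and with both other scalings (2.73 and 2.71), the filter of 1 CPM (2.76) and limma-voom (2.58). Phgdh, the first enzyme of serine synthesis, fell 3.03-fold, from 129 CPM in both controls to 48.2 and 36.6 CPM (edgeR adjusted p = 0.0173). Of NRF2, its inhibitor and 14 targets, 15 genes were tested, with 11 positive and 4 negative log2 fold changes and a median of 0.20. By edgeR 1 rose and 1 fell, beside 0.876% and 0.555% of all tested genes. At an unadjusted p below 0.05, 6 were higher and 1 lower, beside 11% and 8.58%, and DESeq2 called 4 higher and 1 lower, beside 4.22% and 3.35%. The 4 higher were Srxn1, Nqo1, Hmox1 and Keap1, the gene of the inhibitor. Nqo1, Hmox1 and Keap1, named after their values were seen, had log2 fold changes of 1.26, 0.79 and 0.80. None of these was called by edgeR. Srxn1, which reactivates peroxiredoxins, rose 2.67-fold (log2 fold change 1.42, edgeR adjusted p = 0.0348). Abcc1, an exporter of glutathione conjugates, fell 2.04-fold (log2 fold change -1.03, edgeR adjusted p = 0.0436). Srxn1 was not called without knockdown replicate 2 (1.32), nor Abcc1 without knockdown replicate 1 (-1.14) or replicate 2 (-0.92).

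**Figure D5:**
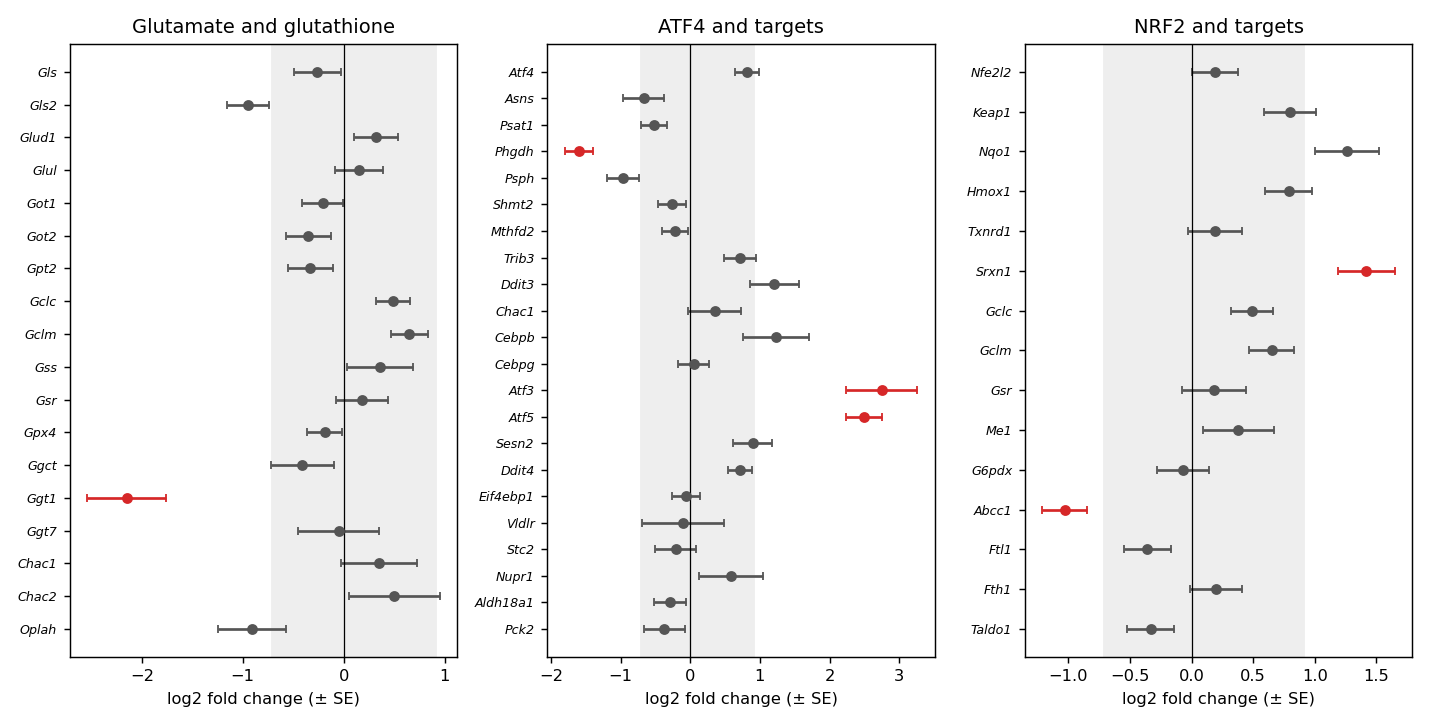
Log2 fold change, knockdown over control, with bars of 1 standard error, for genes of glutamate and glutathione metabolism (18 genes), ATF4 with its targets (22 genes) and NRF2 with its partners and targets (15 genes). Gclc, Gclm, Gsr and Chac1 appear in 2 panels. Red marks called genes, which are Ggt1, Phgdh, Atf3, Atf5, Srxn1 and Abcc1, and the grey band is -0.71 to 0.91.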

How the data were processed

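Messenger RNA of 4 libraries was measured, 2 per group, grouped by title. The values are unnormalized read counts by gene, as the authors deposited them. Cutadapt, HISAT2, featureCounts and the build mm10 are named per the submitters' processing notes. The sources used here give no versions, annotation, strand setting or treatment of multiply mapped reads. A set of 92 spike-in rows, all at 0, was left out. In 27 rows a date stood for the symbol. These held 0.151% to 0.177% of the counts and stayed in library sizes and tests.

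Genes kept by filterByExpr were scaled by TMM and compared with the quasi-likelihood F-test of edgeR 4.0.16 in R 4.3.3, with group as the only term and Benjamini-Hochberg adjustment over all 16209 tested genes (called below 0.05). Standard errors were obtained as log2 fold change (absolute) divided by the square root of F. The procedure was tested on 5 simulated data sets of 16209 genes, 2 against 2 libraries, each with 200 changed genes. Of the 456 genes changed 2-fold that passed the filter 25.4% were called, and of the 518 changed 4-fold 75.7%. False calls numbered 3 to 6 per set. Each simulated gene had the spread typical of its level, with no excess of its own. These rates may therefore differ from those in the real libraries. Library totals were 16383323 to 19867689 counts. DESeq2 1.42.0 and limma 3.58.1 (voom), other scalings and filters, a replicate block and leaving out each library were alternatives. Members, lists and tests were chosen with earlier results of these data known. Named genes are the 10 members, up to 4 called genes per list by smallest p, the 2 most abundant where fewer than 2 were called, and the 3 genes most like Slc1a3 and Slc1a1 (log2 of CPM plus 0.1, mean of at least 5 CPM). Positions are from RefSeq, GRCm38.p6, and lengths from GENCODE M21.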

Additional observations from a re-analysis of the deposited data

How the results depend on the processing

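Calls among the 10 genes are a description, since this contrast helped to choose them. Of the 10 genes, 1 higher (Slc1a1) and 2 lower (Slc1a3 and Slc7a3) were called with no filter on low counts. Leaving out each library gave 0 to 1 called higher and 1 called lower. The members' median log2 fold change, 0.02 in the reported fit, was -0.0012 with RLE scaling, -0.0067 with upper quartile scaling, -0.0012 with DESeq2, and -0.19 to 0.21 with 1 library left out. Over all genes, 142 higher and 90 lower became 996 and 721 with no filter, 617 and 490 with DESeq2, and 108 to 389 and 45 to 198 with 1 library left out (highest without control replicate 1, lowest without knockdown replicate 2). Same-numbered libraries deviated with a correlation of -0.05, so the numbers are not taken to pair them. With the replicate block 428 genes were higher and 228 lower, with 2 other carriers and 2 glutamate or glutathione enzymes called lower. Other carriers called higher numbered 0 with RLE or upper quartile scaling, 2 with no filter, 2 with DESeq2, and 0 to 1 with 1 library left out. Carriers called lower numbered 3, 2 and 0 to 1 with no filter, DESeq2 and 1 library left out. Glutamate and glutathione enzymes called lower numbered 0 with upper quartile scaling, 2 with no filter, 2 with DESeq2, and 0 to 1 with 1 library left out. The sign of Slc38a1, which is near 0, turned with RLE scaling (-0.0175), upper quartile scaling (-0.0242), no filter (-0.0102) and DESeq2 (-0.0174). With 1 library left out, values crossed 0 for Slc38a1 (-0.16 to 0.13), Slc1a4 (-0.56 to 0.0547), Slc3a2 (-0.0713 to 0.39), Slc7a5 (-0.22 to 0.28), Slc7a1 (-0.28 to 0.21), Slc7a7 (-0.0109 to 0.75) and Slc25a13 (-0.68 to 0.27), none of them called. In such fits a lone library is assumed to vary like the other group. The cause of these shifts was not tested. The depth limits Slc7a11, at 28 to 70 reads, and the knockdown level of Slc1a3, at 57 and 25 reads.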
